A study of Mus musculus with 9 samples.

Results

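The 10 genes described here belong to the Notch pathway: the receptors Notch1, Notch2 and Notch3, the ligands Jag1 and Dll1, the DNA-binding factor Rbpj and the target repressors Hes1, Hey1, Hey2 and Heyl. They were chosen by name from 22180 genes measured on 9 one-colour Affymetrix arrays, and each was read by 1 probe set, the one whose 9-array mean was highest. That mean ignores the groups. All 10 had at least 1 probe set with a single gene symbol, and none was lost when the lowest 30% of genes by mean were left out. The list was drawn up with earlier results of these arrays known, among them the low Hes1 value after washout.

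The cells were hMLKL1-181-2Fv-NIH3T3, a mouse fibroblast line whose fusion protein joins Fv domains to a stretch of human MLKL, the executioner of necroptosis, which breaks the cell membrane. B/B is a dimerizer that brings Fv domains together. The washout group received 50 nM B/B for 1 h, was sorted for annexin V (AnnV+), which binds phosphatidylserine on the cell surface, and was kept for 6 h of washout, given at 3000 nM with no compound named. The B/B 1 h group had the same B/B exposure and sort but no washout, and the control group is labelled only as control treatment. Each group had 3 arrays. For control cells the labels give neither a sort nor a harvest time. In any contrast with control, the effects of B/B, sorting and time therefore cannot be told apart. For the washout group, the unnamed compound at 3000 nM adds to these. Between B/B 1 h and washout, the effects of B/B removal, that compound and the 6 h after the sort cannot be told apart either. The labels also do not say which promoter drives the fusion protein, whether the line is 1 clone, or whether samples of a group were separate cultures, and p-values therefore measure only the spread between these samples. The number of arrays limits the precision.

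Notch receptors are membrane proteins that a ligand on a neighbouring cell activates. Proteolysis by an ADAM protease and then by gamma-secretase frees the intracellular domain, which joins RBPJ on DNA with a Mastermind co-activator and turns RBPJ from a repressor complex into an activating one. HES and HEY genes, which encode basic helix-loop-helix repressors, are the best known targets. In fibroblasts Hes1 also responds to serum and oscillates because its protein represses its own gene. Transcript levels do not show whether a receptor is cleaved.

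The median log2 value of an array was 4.60 to 4.68, with base 2 inferred from the range, and arrays of 1 group correlated at 0.998 to 0.999 across genes, against 0.990 to 0.998 between groups. Of 8 fibroblast markers, 7 read above the level that 95% of 1088 olfactory receptor genes did not exceed, 4.71 (log2), and Fap was the exception. The level was also exceeded by 4 of 4 smooth muscle, 2 of 5 endothelial, 2 of 6 leukocyte and 2 of 4 neural markers. Passing this level therefore does not identify the cell type. Olfactory receptors are not expected in fibroblasts, so this level is used as a description of background. Hey1 and Hey2 averaged 4.69 and 4.33 over all arrays and did not exceed it. Dll1 averaged 4.76, just above it, and Notch3, Heyl and Notch1 averaged 5.14, 5.49 and 6.78. Notch2, Jag1, Hes1 and Rbpj averaged between 8.15 and 10.84. Levels of different probe sets do not rank transcripts by abundance.

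**Figure D1:**
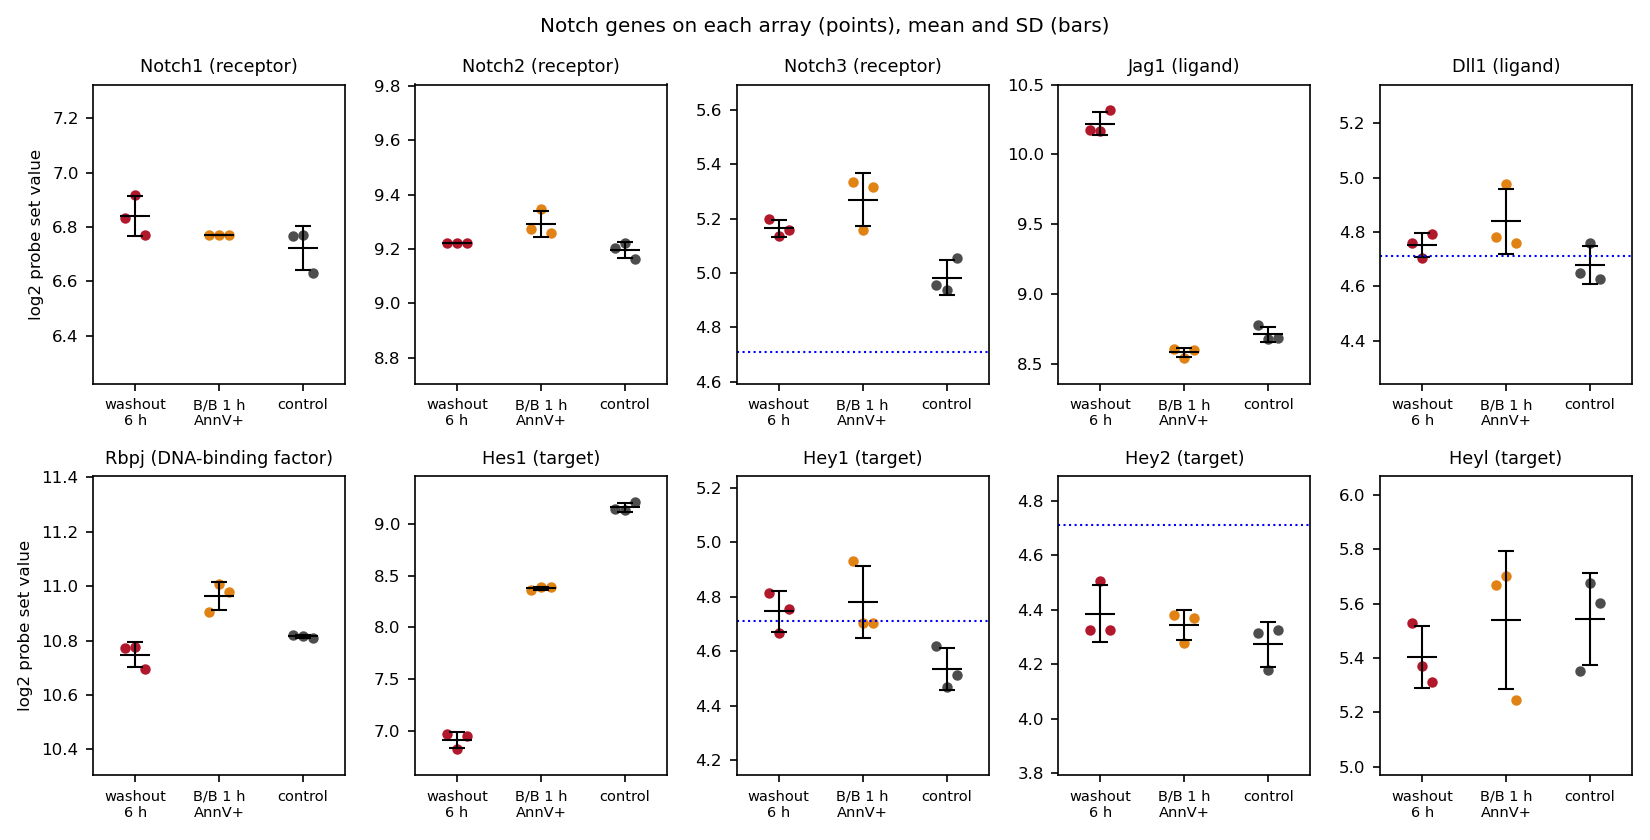
Log2 probe set value (y axis, a separate range in each panel) of the 10 Notch genes on each array, in the washout 6 h, B/B 1 h AnnV+ and control groups; bars are the mean and SD of 3 arrays, and the dotted line is the 95th percentile of olfactory receptor genes, 4.71, where it falls in the panel. Hes1 lies lowest and Jag1 highest on the 3 washout arrays.

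Hes1 was lower in both treated groups than in control, and lower after washout than at 1 h. Its log2 values were 6.97, 6.82 and 6.95 after washout, 8.36, 8.39 and 8.39 at B/B 1 h, and 9.14, 9.13 and 9.21 in control. The 3 groups lay far apart with no overlap, and the spread within each was at most 0.077 (SD, n = 3). After washout Hes1 fell by 2.25 ± 0.049 (log2, SE) against control, which is 4.76-fold lower. Among the 22180 genes this was the 4th lowest difference. At 1 h it fell by 0.78 ± 0.049 against control, or 1.72-fold, the 29th lowest difference. Between B/B 1 h and washout it fell by a further 1.47 ± 0.049, or 2.76-fold. The adjusted p was 7.31e-09, 3.03e-05 and 6.17e-08 in these 3 comparisons (limma, Benjamini-Hochberg over all genes). It kept its calls under all 15 alternatives in which it was tested again, some of which left its log2 difference unchanged. The fall after washout was known when the genes were listed and is given as a description. In bulk RNA, fewer cells of a kind and less RNA per cell cannot be told apart.

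Among 19384 genes, predicted-gene names left out, the 5 nearest to Hes1, by the distance between log2 values centred on each gene's 9-array mean, were Bhlhe40, Klf10, Slc1a3, Per1 and Myl9. Their distances ran from 0.44 to 0.84. Bhlhe40, a basic helix-loop-helix repressor of the clock, averaged 8.42 ± 0.058 after washout, 9.58 ± 0.018 at B/B 1 h and 10.36 ± 0.050 in control (log2, SD, n = 3 each), and its log2 difference at 1 h was -0.78, as that of Hes1. Klf10, a TGF-beta-inducible repressor, Slc1a3, a glutamate transporter, and Myl9, a myosin light chain, stood at -0.36, -0.36 and -0.26 against control at 1 h, and at -1.93, -1.72 and -1.65 after washout. Per1, a clock repressor, stood at -0.11 at 1 h and at -1.90 after washout. These genes were picked for their likeness, so the values are a description. Among the other members the nearest to Hes1 was Heyl, at a distance of 2.66 and rank 4240 among all 22180 genes, and Jag1 was the farthest at 4.92.

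**Figure D2:**
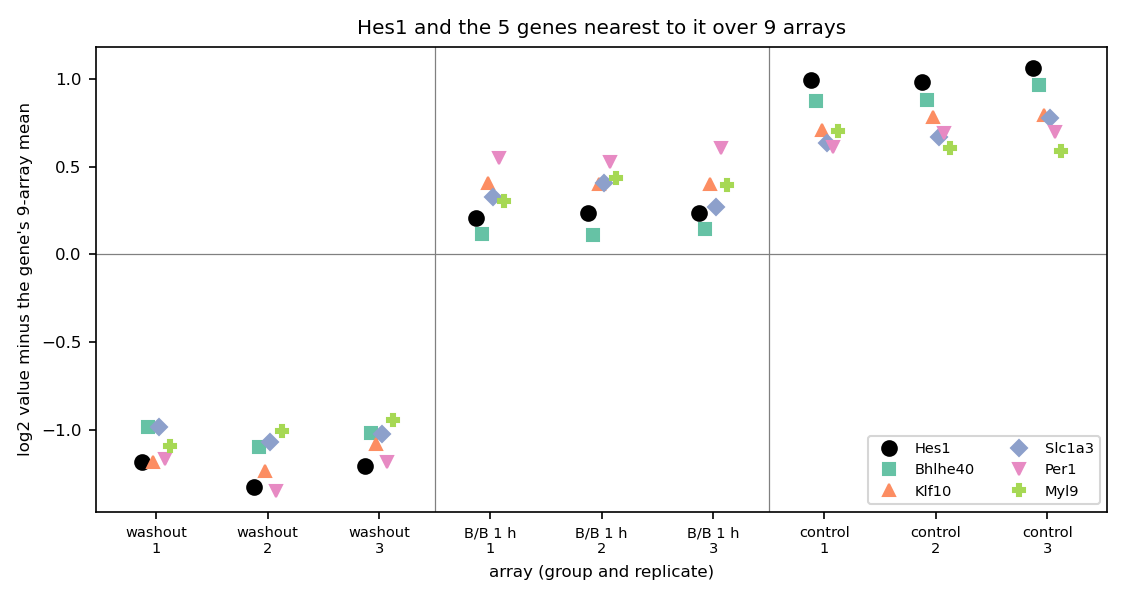
Log2 value minus the gene's own mean over 9 arrays (y axis) for Hes1 and the 5 genes nearest to it, on each washout, B/B 1 h AnnV+ and control array (x axis). All 6 genes lie below 0 on every washout array and above 0 on every other array, and at 1 h Hes1 and Bhlhe40 lie below the other 4 genes.

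None of the 3 HEY genes passed the threshold in any of the 3 comparisons. Hey1, a repressor of the vasculature and heart, had log2 values of 4.82, 4.67 and 4.76 after washout, 4.93, 4.70 and 4.71 at B/B 1 h, and 4.62, 4.47 and 4.51 in control. Every array of both treated groups read above every control array, at a level near background. The differences from control were 0.21 ± 0.073 after washout and 0.25 ± 0.073 at 1 h (log2, SE), opposite in sign to those of Hes1, with limma adjusted p of 0.0612 and 0.113. After washout Hey1 passed the threshold without B/B 1 h replicate 1 (adjusted p 0.0212), an array that bears on it only by way of the shared error estimate, within a range of 0.0212 to 0.184 over its alternatives. It also passed when array medians were centred (0.0309), after quantile normalization (0.0311), with only the 2 groups compared (0.0363) and with the lowest 30% of genes dropped (0.0424).

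Hey2, a repressor of heart and artery, ran from 4.33 to 4.51 after washout, from 4.28 to 4.38 at B/B 1 h and from 4.18 to 4.33 in control. Its groups overlapped, and the 95% interval of its difference from control was -0.03 to 0.26 after washout and -0.07 to 0.22 at 1 h. Heyl, the third HEY family repressor, ran from 5.31 to 5.53 after washout, from 5.25 to 5.70 at B/B 1 h and from 5.35 to 5.67 in control. It had the widest spread of the 10 genes, with intervals of -0.43 to 0.15 after washout and -0.29 to 0.28 at 1 h. These intervals do not reach the Hes1 difference in either comparison. In control, however, Hey2 averaged 4.27, below the olfactory receptor level, and Heyl 5.54, not far above it. A fall as large as that of Hes1 after washout might not show at such levels.

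Jag1, a transmembrane ligand of Notch receptors, was higher after washout than in both other groups. Its log2 values were 10.18, 10.17 and 10.31 after washout, 8.60, 8.54 and 8.60 at B/B 1 h, and 8.77, 8.67 and 8.68 in control. The lowest washout array stood more than 1 log2 unit above the highest of the other 6. Jag1 rose by 1.51 ± 0.053 (log2, SE) after washout against control, or 2.85-fold, the 36th highest difference of all genes (limma adjusted p 1.25e-07). Against B/B 1 h it rose by 1.64 ± 0.053, or 3.11-fold (limma adjusted p 5.38e-08). At 1 h the 3 arrays read below the 3 control arrays, by 0.13 on average, with a limma adjusted p of 0.234 and an interval of the difference from -0.25 to -0.01. Dll1, the other ligand among the 10, ran from 4.71 to 4.79 after washout, from 4.76 to 4.98 at B/B 1 h and from 4.63 to 4.76 in control. Its values differed from control by 0.07 and 0.16, within overlapping groups, and its second probe set, at 4.18 to 4.38 in the group means, gave 0.10 and 0.21.

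The 250 bases before the RefSeq start of Jag1 (GRCm38.p6, chr2:137116521-137116770, minus strand) are shown because this gene rose most of the 10, and those of Notch3 (chr17:32166891-32167140, minus strand) and Rbpj (chr5:53590096-53590345, plus strand, the first of its 2 overlapping windows) because the tests called them too. Windows were found for 7 of the 10 genes, in 9 stretches. The reference held none for Hes1, Hey1 or Heyl, so Hes1 is not shown although it was called. Capitals mark the RBPJ core TGGGAA, the N box CACNAG that HES proteins bind and the CRE core TGACG, each on either strand, and no capital stretch overlaps another.
Jag1: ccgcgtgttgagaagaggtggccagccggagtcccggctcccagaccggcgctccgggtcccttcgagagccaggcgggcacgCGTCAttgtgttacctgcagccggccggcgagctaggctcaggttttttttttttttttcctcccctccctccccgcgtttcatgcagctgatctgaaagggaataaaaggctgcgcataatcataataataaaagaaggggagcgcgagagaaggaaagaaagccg
Notch3: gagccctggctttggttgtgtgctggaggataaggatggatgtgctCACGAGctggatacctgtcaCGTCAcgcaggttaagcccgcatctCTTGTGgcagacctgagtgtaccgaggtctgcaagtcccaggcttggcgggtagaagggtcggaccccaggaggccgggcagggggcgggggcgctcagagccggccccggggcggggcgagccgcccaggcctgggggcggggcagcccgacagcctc
Rbpj: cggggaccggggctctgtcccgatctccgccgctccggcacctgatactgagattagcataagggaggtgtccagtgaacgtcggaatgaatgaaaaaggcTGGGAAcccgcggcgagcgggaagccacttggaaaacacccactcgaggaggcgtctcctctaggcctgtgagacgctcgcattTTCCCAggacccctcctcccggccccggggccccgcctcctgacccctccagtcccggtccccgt
Jag1 had 1 CRE core, 167 bases upstream at its first base, and no RBPJ core or N box in this window. Notch3 had 2 N boxes, 204 and 159 bases upstream, and 1 CRE core between them. Rbpj had 2 RBPJ cores, 149 and 65 bases upstream. Of 32851 windows in the RefSeq table, 21.6% hold the RBPJ core, 36.7% the N box and 17.8% the CRE core, and of the 9 windows of the members 3, 3 and 2 do. Of the 3 with an RBPJ core, 2 are the overlapping Rbpj windows, which share 1 of their matches. The E box CANNTG, found in 66.2% of all windows, was not marked and lies in 5 of the 9.

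Among the receptors, Notch3 was the 1 member called. Its log2 values were 5.20, 5.14 and 5.16 after washout, 5.34, 5.16 and 5.32 at B/B 1 h, and 4.96, 4.94 and 5.06 in control. Every treated array read above every control array, at a level not far above background. The rise was 0.18 ± 0.058 (log2, SE) after washout and 0.29 ± 0.058 at 1 h, with limma adjusted p of 0.045 and 0.034. The 1 h call was lost without control replicates 1, 2 and 3 (adjusted p 0.104, 0.105 and 0.0501), with B/B 1 h replicates 1 and 3 left out in turn (0.103 and 0.0718) and without washout replicates 1, 2 and 3 (0.0557, 0.0558 and 0.057). The Notch3 call at 1 h thus held without 1 of the 9 arrays, B/B 1 h replicate 2. With only the 2 groups compared it was 0.0993, within 0.0184 to 0.105 over its alternatives. The washout call was lost when control replicates 1 and 2 (0.125 and 0.138), B/B 1 h replicate 3 (0.0542) or washout replicates 1, 2 and 3 (0.133, 0.078 and 0.0947) were each left out, and with a variance trend (0.078), within 0.0201 to 0.138.

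Notch1 ran from 6.77 to 6.92 after washout, stood at 6.77 on all 3 arrays at B/B 1 h, and ran from 6.63 to 6.77 in control. Its deposited value was identical on 5 of the 9 arrays. Notch2 stood at 9.22 on all 3 washout arrays, and ran from 9.26 to 9.35 at B/B 1 h and from 9.16 to 9.22 in control, with 4 arrays identical. Such repeats, at 4 arrays or more, occur in 13.1% of all genes, and an SD of 0 there is no measure of error. The differences of Notch1 from control were 0.12 ± 0.054 after washout and 0.05 ± 0.054 at 1 h, and those of Notch2 were 0.025 ± 0.041 and 0.10 ± 0.041 (log2, SE). None passed the limma threshold, at adjusted p from 0.164 to 0.744, and the 95% intervals of both genes lie within -0.07 and 0.24.

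Rbpj, which encodes the DNA-binding factor of the pathway, had log2 values of 10.77, 10.78 and 10.69 after washout, 10.91, 11.01 and 10.98 at B/B 1 h, and 10.82, 10.82 and 10.81 in control. The 3 groups did not overlap, with B/B 1 h highest and washout lowest. After washout it fell by 0.22 ± 0.044 (log2, SE) against B/B 1 h, with a limma adjusted p of 0.00447. Against control it stood at -0.07 ± 0.044 after washout and 0.15 ± 0.044 at 1 h, with limma adjusted p of 0.345 and 0.116, and the 1 h difference passed with a variance trend (0.0179; 0.0179 to 0.477 over its alternatives). A second Rbpj probe set, with group means of 4.58 after washout, 4.90 at B/B 1 h and 4.92 in control, stood at -0.34 and -0.02 in these comparisons. With both averaged, the washout difference from control was -0.20 and passed the threshold (adjusted p 0.00832; 0.00832 to 0.741 over its alternatives). Most of that averaged difference comes from the second probe set, which reads near the olfactory receptor level of 4.71. This limits what the averaged call shows.

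**Figure D3:**
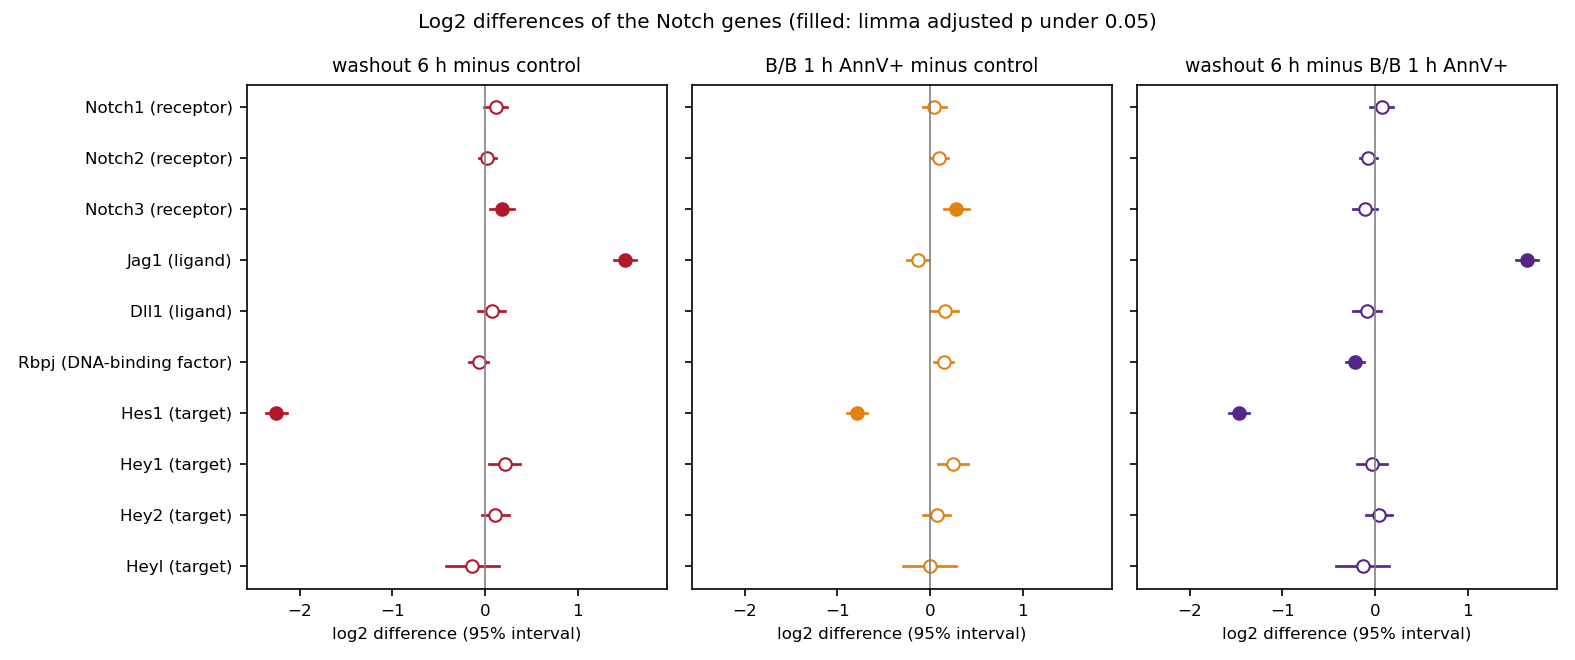
Log2 difference (x axis, 1 scale for all panels) with its 95% interval from limma for the 10 Notch genes, for washout 6 h minus control, B/B 1 h AnnV+ minus control and washout 6 h minus B/B 1 h AnnV+; filled points passed the threshold. Hes1 lies below 0 in all 3 panels, at -2.25, -0.78 and -1.47, and Jag1 above 0 where washout is involved, at 1.51 and 1.64.

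Over the 10 genes, 2 were higher (Jag1, Notch3) and 1 lower (Hes1) after washout against control, where 26.2% of all genes were called (14.5% higher and 11.7% lower). At 1 h, 1 was higher (Notch3) and 1 lower (Hes1), where 2.89% of all genes were called (1.01% higher and 1.88% lower). At adjusted p under 0.01, which 1.08% of all genes passed, Hes1 was the 1 gene of the 10 called at 1 h. Between B/B 1 h and washout, 1 was higher (Jag1) and 2 lower (Hes1, Rbpj) after washout, where 28.6% of all genes were called (16.6% higher and 12.0% lower). The groups did not overlap in 5, 6 and 4 of the 10 in these 3 comparisons, against 38.0%, 21.3% and 39.6% of all genes. The medians of the 10 differences were 0.09, 0.08 and -0.08, and those of all genes were 0.00, 0.00 and -0.02. In the F-test over the 3 groups, 4 of the 10 passed (Hes1, Jag1, Notch3 and Rbpj), against 29.5% of all genes. The comparisons share arrays.

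Of 59 other Notch pathway genes listed by role, 56 were measured, and 51 of these averaged above the olfactory receptor level. After washout, 20 were higher and 8 lower than control, or 50.0% of the list beside 26.2% of all genes, with a median difference of 0.02 beside 0.00 for all genes. At 1 h, 1 was higher and 0 lower, or 1.79% beside 2.89%, with 6 higher and 7 lower by limma at unadjusted p under 0.05, where 18.5% of all genes passed. Between B/B 1 h and washout, 20 were higher and 12 lower after washout, or 57.1% beside 28.6%. These shares have unlike baselines, since 42.7% of all genes averaged no higher than Hey1, near background, where calls were few. Of 1088 olfactory receptor genes, 26 were called after washout against control and 21 between B/B 1 h and washout. The share called among all genes above the olfactory receptor level was not computed. The counts by role below are small and are to be read beside the shares of all genes. No role was tested as a set. Genes of this list named below without being among the 3 highest or lowest called differences were chosen after their values were seen, apart from Notch4, Jag2, Dll4, Hes5, Hes6, Hes7 and Nrarp, which are given whatever their values. The genes chosen after their values were seen were picked for a call after washout against control.

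The fourth receptor, Notch4, which is known chiefly from endothelium, had log2 values of 7.24, 7.37 and 7.65 after washout, 6.93, 6.94 and 6.85 at B/B 1 h, and 6.88, 6.91 and 6.72 in control. The washout arrays stood above the other 6, and the rise against control was 0.58 ± 0.095 (log2, SE; limma adjusted p 0.00125). Of 5 further ligands, 1 was called after washout against control, where 26.2% of all genes were called. That was Dlk2, a non-canonical ligand, with 5.97, 6.14 and 6.22 after washout against 6.70, 6.78 and 6.99 in control, a fall of 0.71 ± 0.10 (limma adjusted p 5.28e-04). The canonical ligands Jag2 and Dll4 averaged 4.82 ± 0.042 and 4.28 ± 0.064 after washout and 4.77 ± 0.067 and 4.33 ± 0.089 in control (log2, SD, n = 3 each), and neither passed the threshold (limma adjusted p 0.638 and 0.649). Whether Jag1 differed from these ligands in its response was not tested.

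Of 4 ubiquitin ligases that act on ligands, Mib1 and Mib2 rose by 0.28 and 0.30 (log2) after washout against control. Of 5 enzymes that glycosylate receptors, Rfng, a Fringe glycosyltransferase, and Pofut1, the O-fucosyltransferase of Notch, fell by 0.35 and 0.28. The Pofut1 call was lost without control replicate 3 (adjusted p 0.11) and washout replicates 1 and 2 (0.0963 and 0.0526), with array medians centred (0.0535) and with only the 2 groups compared (0.0643), within 0.0144 to 0.11 over its alternatives. Of 8 proteases and gamma-secretase subunits, 3 rose and 2 fell, where 14.5% of all genes were called higher and 11.7% lower. Psen2, a catalytic subunit, rose by 0.36, the convertase Furin by 0.29 and the sheddase Adam17 by 0.26, while the subunit Ncstn fell by 0.30 and the sheddase Adam10 by 0.26.

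The largest rises of the list were in receptor trafficking and turnover, where 4 of 9 were higher and 1 lower after washout than in control. Of all genes 14.5% were higher and 11.7% lower. Dtx2, a Deltex ubiquitin ligase, had log2 values of 7.90, 7.85 and 7.88 after washout against 7.14, 7.12 and 7.25 in control. Numbl, a relative of the Notch antagonist Numb, had 9.23, 9.28 and 9.30 after washout against 8.68, 8.57 and 8.58 in control, and Dtx4 had 8.16, 8.24 and 8.19 against 7.55, 7.63 and 7.62. None of these 3 genes overlapped between the groups, and they rose by 0.71 ± 0.046, 0.66 ± 0.049 and 0.60 ± 0.046 (log2, SE; limma adjusted p at most 1.28e-05). Fbxw7, the ligase subunit that targets the cleaved receptor, rose by 0.21, and Dtx3 fell by 0.20. The Fbxw7 call was lost without control replicates 1, 2 and 3 (adjusted p 0.0982, 0.12 and 0.0867), B/B 1 h replicate 2 (0.065) and washout replicates 2 and 3 (0.107 and 0.145), within 0.0142 to 0.145 over its alternatives. The Dtx3 call was lost without control replicate 3 (0.0528, the highest of its alternatives, which began at 0.00642).

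Nuclear cofactors moved in both directions. Of 6 co-activators, Maml2, a Mastermind protein, fell by 0.47 ± 0.063 after washout against control, with 7.77, 7.82 and 7.71 against 8.26, 8.28 and 8.19 (log2; limma adjusted p 3.35e-04). The acetyltransferase Kat2b fell by 0.33 and the acetyltransferase Ep300 rose by 0.41. The Kat2b call was lost without washout replicates 1 and 2 (adjusted p 0.0512 and 0.0522; 0.00395 to 0.0522 over its alternatives). Of 10 co-repressors, 6 were higher and 2 lower by limma at unadjusted p under 0.05, which 34.0% of all genes passed. Past the adjusted threshold 6 were higher and 0 lower, where 14.5% of all genes were higher and 11.7% lower. The 6 were the demethylase Kdm5a at 0.58, the RBPJ-binding repressors Spen at 0.34 and Cir1 at 0.29, the Groucho-related Tle1 at 0.31 and Tle3 at 0.28, and Ctbp2 at 0.26 (log2). Between B/B 1 h and washout the same 6 passed in the same direction, where 16.6% of all genes were higher.

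Other HES genes and direct targets had 3 higher and 0 lower of 8 after washout against control, with 4 higher and 0 lower by limma at unadjusted p under 0.05. Of all genes 14.5% were called higher there, and 34.0% passed the unadjusted cut in either direction. Myc, a growth-promoting transcription factor that Notch and many other inputs induce, had log2 values of 10.29, 10.35 and 10.39 after washout, 10.60, 10.67 and 10.68 at B/B 1 h, and 10.09, 10.10 and 10.18 in control. It was highest at B/B 1 h, where it rose by 0.53 ± 0.047 against control (log2, SE; limma adjusted p 3.05e-04), and was the 1 gene of the list called there. Ccnd1, a G1 cyclin, stood 0.15 above control after washout, and Hes3, a repressor that read below the olfactory receptor level, 0.20. The Ccnd1 call was lost without control replicates 2 and 3 (adjusted p 0.0728 and 0.0615) and washout replicate 1 (0.0845), within 4.62e-04 to 0.0845 over its alternatives. The Hes3 call was lost with a variance trend (0.0691), with only the 2 groups compared (0.0818) and without 7 of the 9 arrays, within 0.0113 to 0.155 over its alternatives. The values were 0.143 and 0.155 without control replicates 2 and 3, 0.054, 0.0646 and 0.0633 when B/B 1 h replicates 1, 2 and 3 were dropped, and 0.131 and 0.149 without washout replicates 2 and 3.

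Hes5, a canonical Notch target in neural tissue, averaged 5.59 ± 0.044 after washout, 5.78 ± 0.13 at B/B 1 h and 5.66 ± 0.028 in control (log2, SD, n = 3 each). Hes6, an inhibitor of HES1, averaged 6.16 ± 0.023, 5.93 ± 0.19 and 5.92 ± 0.061 in the same order of groups. Hes6 stood 0.24 above control after washout (limma adjusted p 0.0587; 0.00688 to 0.153 over its alternatives) and passed the threshold with only the 2 groups compared (0.00688), with array medians centred (0.0298), with the lowest 30% of genes dropped (0.0413) and without B/B 1 h replicate 1 (0.0123) or 2 (0.0175). Hes7, the segmentation clock repressor, and Nrarp, a feedback inhibitor of Notch, differed from control by -0.03 and -0.18 after washout (limma adjusted p 0.805 and 0.256). An identical deposited value of Hes5, 5.64, recurred on arrays of all 3 groups, and that of Hes7, 6.47, stood on all 3 control arrays. As for Notch1 and Notch2, such repeats limit the SDs and p-values of both genes as measures of error. Of the genes that are textbook targets of the pathway, Hes1 alone was called lower than control in both treated groups among Hes1, Hey1, Hey2, Heyl, Hes5, Hes7 and Nrarp. Hey1, Hey2 and Nrarp averaged 4.53, 4.27 and 4.92 in control, near or below the olfactory receptor level of 4.71, which leaves little room for a fall. Differences between these genes in response were not tested.

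**Figure D4:**
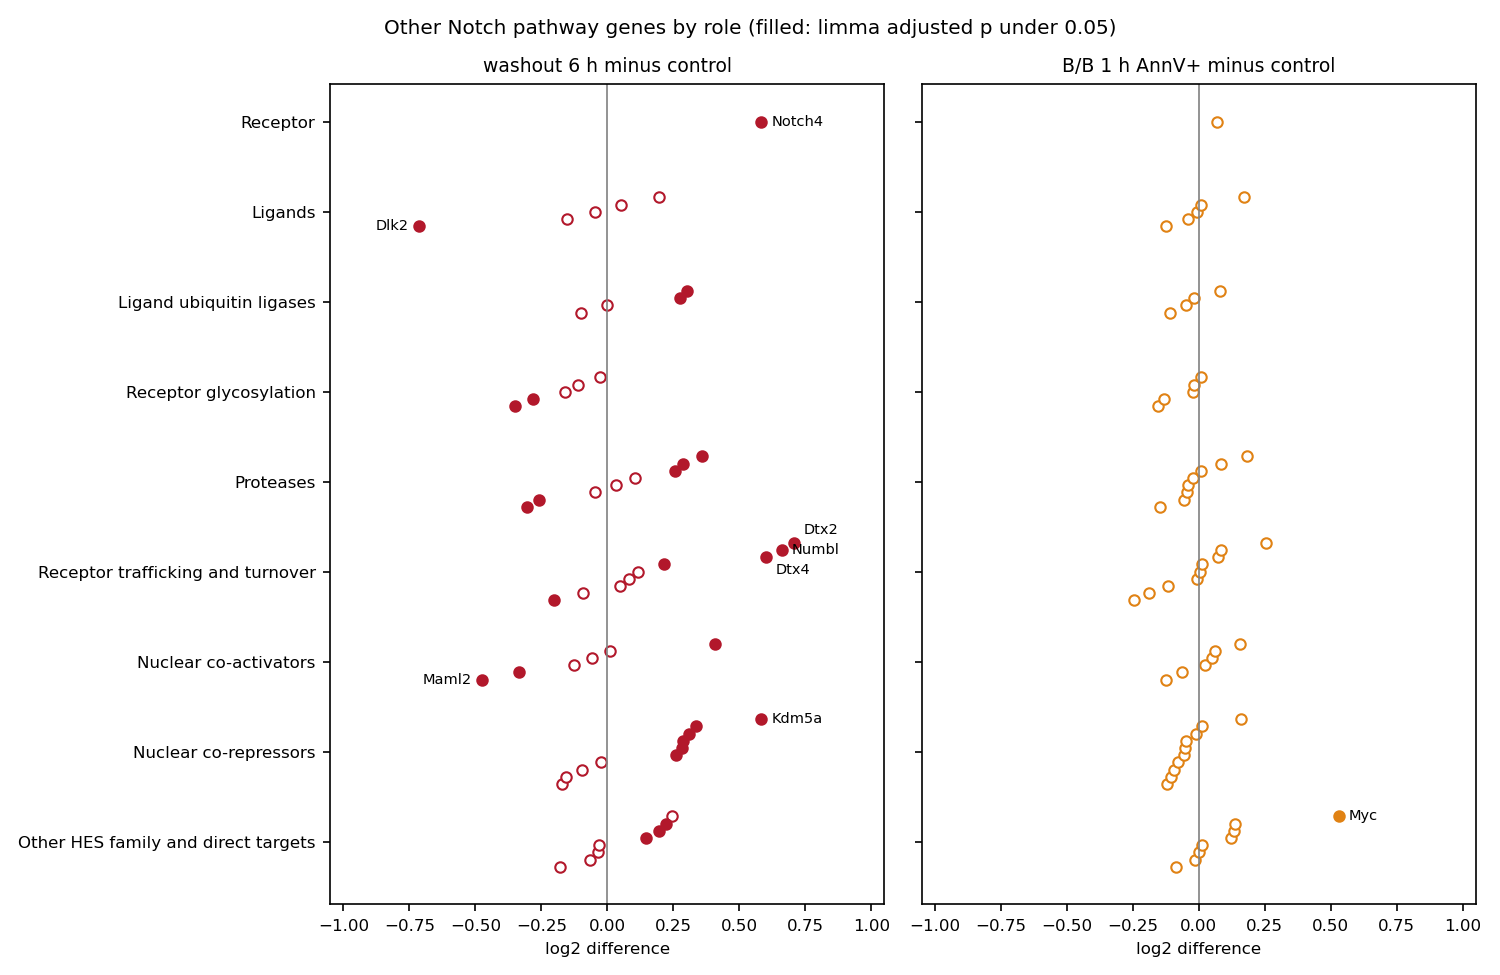
Log2 difference (x axis) of 56 other Notch pathway genes by role (y axis, 1 point per gene, spread vertically within a role by rank) for washout 6 h minus control and B/B 1 h AnnV+ minus control; filled points passed the limma threshold and those at 0.45 or more from 0 are named. After washout 28 points are filled, from Dlk2 at -0.71 to Dtx2 at 0.71, and at 1 h Myc at 0.53 is the only one.

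Some markers of cell types also differed between the groups. After washout 5 of 8 fibroblast markers were lower than control by limma, where 11.7% of all genes were lower. Pdgfrb stood at -1.36, Col1a2 at -0.99 and Col1a1 at -0.79, while Vim and Fn1 stood at -0.01 and 0.06. Their summed level ran from 13.81 to 13.82 after washout, from 14.01 to 14.03 at B/B 1 h and from 13.97 to 14.01 in control (log2 of the sum). Of 5 endothelial markers, Cdh5 was called higher after washout, at 0.28, and Kdr, Tek and Emcn read below the olfactory receptor level. The summed endothelial level ran from 7.31 to 7.49 after washout, from 7.08 to 7.20 at B/B 1 h and from 7.19 to 7.21 in control. The summed level of 6 leukocyte markers ran from 9.77 to 9.82 after washout, from 9.39 to 9.54 at B/B 1 h and from 8.92 to 9.01 in control, with Cd14 highest. Cd14 was higher than control after washout, at 1.47, and Cd14, Cd68 and Adgre1 at 1 h, at 0.61, 0.51 and 0.30, while Ptprc and Lyz2 were lower after washout, at -0.19 and -0.30. Adgre1, Lyz2 and the pan-leukocyte gene Ptprc read below the olfactory receptor level in every group, with Ptprc at 3.20 after washout and 3.39 in control. Summed levels of 4 smooth muscle and 4 neural markers overlapped between the groups. The part of these shifts in the Notch gene values was not tested.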

How the data were processed

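The submitters' processing notes name Partek 6.6, and how probes were summarised and scaled is not given in the sources used here. Values were deposited on the log2 scale, per probe set and array. Array medians (4.60 to 4.68) and upper quartiles (6.92 to 7.04) were close. Base 2 was inferred from the range of values, and no detection calls were used here. Columns were named by sample, and groups came from the treatment labels, which carry no replicate numbers.

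A single gene symbol was given for 23521 of 41345 probe sets, several for 1814 and none for 16010. Gene IDs of 23328 of the first kind were found in a RefSeq table of GRCm38.p6, which changed 0 symbols. They gave 22180 genes, each read by its probe set of highest 9-array mean. A linear model was fitted with limma 3.58.1 in R 4.3.3, with 3 group means over all arrays (6 residual and 3.38 prior degrees of freedom), with moderated t statistics and an F-test. The threshold was adjusted p under 0.05 after Benjamini-Hochberg adjustment over all genes. In a simulation of the washout comparison over 22180 genes, with 200 changed, 54% of genes set to 1.25-fold, 86% at 1.5-fold and 100% at 2-fold were recovered. Far fewer genes were changed there than the 26.2% called in the data, and its noise was independent between genes. These rates therefore check the code and need not hold for the data.

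Members and lists were chosen with earlier results of these data known. Named genes were the members, up to 3 called genes per direction and comparison in the wider pathway list, 7 fixed genes of it, the 5 genes nearest to Hes1, and 19 further pathway genes chosen after their values were seen. Some genes of that list are not reported here. The alternatives tried were leaving out each array in turn, fitting only the 2 groups compared, a threshold of 0.01, a mean-variance trend, averaging probe sets, dropping the lowest 30% of genes, centring array medians and quantile normalization.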

Additional observations from a re-analysis of the deposited data

Results flagged for a closer look

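For 32 of the Notch pathway genes named in the text, the difference from control after washout was not the same as at 1 h, by the limma test between washout and B/B 1 h over all genes. Of all genes 28.6% passed this test, and many of the 32 were named for a call in it or after washout against control. The difference of washout from B/B 1 h was -1.47 for Hes1, 1.64 for Jag1 and -0.22 for Rbpj among the 10 Notch genes (log2). Both comparisons share the control arrays. Jag1 stood above control after washout and below it at 1 h, and Rbpj the other way round. Against control, the 1 h differences of both genes fell short of the threshold. So did the washout difference of Rbpj (limma adjusted p 0.345).

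Among the other pathway genes the same difference was 0.63 for Dtx2, 0.67 for Numbl, 0.79 for Dtx4 and 0.51 for Notch4, and -0.67 for Dlk2, -0.50 for Maml2, -0.22 for Rfng, -0.31 for Myc, -0.38 for Kat2b and -0.19 for Hes5 (log2). Hes5, at an adjusted p of 0.0477, lay nearest the threshold and stayed past it in 3 of 15 alternatives, at adjusted p from 0.0049 to 0.154. Its deposited value was also repeated on arrays of all 3 groups.

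The 19 pathway genes named after their values were seen had been picked for a call after washout against control. That comparison uses the same washout arrays, so their passing here is a description and no further support. The difference was above 0 for 15, with Fbxw7 at 0.46, Kdm5a at 0.42, Spen at 0.41, Adam17 at 0.41, Cir1 at 0.41, Tle1 at 0.40, Mib1 at 0.39, Tle3 at 0.33, Mib2 at 0.32, Furin at 0.28, Psen2 at 0.27, Ep300 at 0.25, Ctbp2 at 0.25, Ccnd1 at 0.23 and Hes3 at 0.20. It was below 0 for 4, with Pofut1 at -0.26, Ncstn at -0.26, Dtx3 at -0.21 and Adam10 at -0.21 (log2).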

How the results depend on the processing

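Hes1 and Jag1 kept their direction and calls after washout, against control and against B/B 1 h, under all 15 alternatives, with Hes1 at -2.28 to -2.21 and Jag1 at 1.46 to 1.54 against control (log2). The number of the 10 genes called at 1 h, 2, was 1 at adjusted p under 0.01 and 1 with only the 2 groups compared, where Notch3 was lost, was 3 with a variance trend, where Rbpj was added, and ran from 1 to 2 with 1 array left out. The number called after washout against control, 3, ran from 2 to 4. The F-test count, 4, was 2 at adjusted p under 0.01; its alternatives were chosen after seeing the data. The count of 1 other pathway gene at 1 h was 2 with array medians centred, 2 with the lowest 30% left out, 4 with a variance trend and 1 to 2 with 1 array left out. The cause of these shifts was not tested. Signs turned only in differences that did not pass the threshold. Heyl at 1 h was 0.0046 with quantile normalization and ran from -0.10 to 0.14 with 1 array left out. Hey1 between B/B 1 h and washout was 0.0017 with quantile normalization and 0.0050 with medians centred, and ran from -0.0729 to 0.0424 with 1 array left out. Hey2 ran from -0.0172 to 0.0724 and Jag2 from -0.0145 to 0.0859 in that comparison, and Hes7 was 0.0153 with probe sets averaged. Against control after washout, Hes7 ran from -0.0564 to 0.00581 and Dll4 from -0.088 to 0.000395 with 1 array left out. No paired analysis was possible because the labels carry no replicate numbers. Hey1, Hey2 and Dll1 lie near the background level, which limits what their differences show.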
